A study of Arabidopsis thaliana with 24 samples.

Results

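ASN1 and ASN2 are genes for asparagine synthetase in Arabidopsis thaliana, and their transcripts were followed here over all groups of a study of nitrogen, light and the transcription factor bZIP1. They were chosen by name as the probe sets of ASN1 (AT3G47340, on chromosome 3) and ASN2 (AT5G65010, on chromosome 5), 2 of the 22810 probe sets on the array. The rule used no signal values, but it was set with earlier results of these data known. Both names came from the study's own supplementary tables of regulated genes, because the array annotation at hand listed neither probe set. Those tables were drawn from these same arrays, so that a call in either gene here is not independent evidence of change. A further asparagine synthetase gene, ASN3, could be tied to no probe set by name and was not analysed here.

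All seedlings were of the Col-0 background and grew for 14 days on 0.5 mM KNO3 and 3 mM sucrose, with 16 h of light and 8 h of dark. The genotypes were bzip1-1, a single knock-out line with a T-DNA insertion in the only exon of bZIP1, and WT-sib, a sibling line without the insertion. For 2 h at the start of the light period, the seedlings received 20 mM KNO3 and 20 mM NH4NO3 (+N) or KCl as a mock (-N), either in light (+L) or under foil (-L), so that the -L seedlings stayed in darkness past the end of their night. Whole seedlings, roots and shoots together, were hybridized to 24 ATH1 arrays, and each of the 8 groups was represented by 3 arrays from independent experiments.

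Asparagine synthetase moves the amide nitrogen of glutamine onto aspartate, giving asparagine and glutamate. Asparagine carries much nitrogen per carbon and serves plants to store and transport nitrogen, above all when carbon is short. ASN1, also called DIN6, is known in Arabidopsis as a gene that is switched on in darkness and off by light and sugar, and in protoplasts the kinase KIN10 and bZIP factors of group S1, to which bZIP1 belongs, can activate it. ASN2 is known as a gene that light induces.

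The values are MAS 5.0 signal intensity, in arbitrary units on a linear scale, with a trimmed mean of 500 and a median of 182 to 216 on every array. Changes are differences of mean log2 signal, written N for +N minus -N, L for +L minus -L and G for bzip1-1 minus WT-sib, and products such as N*L are the difference of one response between the states of the other factor. P-values were adjusted over the 22746 probe sets tested, and a change was called below an adjusted p of 0.05. The knocked-out gene itself was not checked here, since none of the tables used pairs its locus with a probe set. An unnamed transcript with the lowest genotype change went against the labels on the replicate 1 arrays of the -N+L treatment. Its signal in light was 519 to 6034 in WT-sib apart from 56.5 on that array, and 68.6 to 123 in bzip1-1 apart from 471 there. Results on genotype are therefore also given without these 2 arrays. In RNA from whole seedlings, fewer cells of a type and less RNA per cell cannot be told apart.

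ASN1 transcripts were abundant in every group kept in the dark and low in every group in light. In WT-sib the 3 arrays read 9787, 12385 and 13509 under -N-L and 9788, 27819 and 8458 under +N-L, in the order of the replicate numbers. In bzip1-1 they read 12942, 15803 and 13194 under -N-L and 3763, 11687 and 15493 under +N-L. The 12 dark arrays thus ran from 3763 to 27819, and the widest spread lay in the +N-L groups. In light, WT-sib read 566, 1974 and 918 under -N+L and 1468, 1879 and 1384 under +N+L. For bzip1-1 the light arrays read 766, 1636 and 743 under -N+L and 974, 2069 and 1932 under +N+L. No light array reached the lowest dark array, as the plot of the signals by treatment shows.

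**Figure D1:**
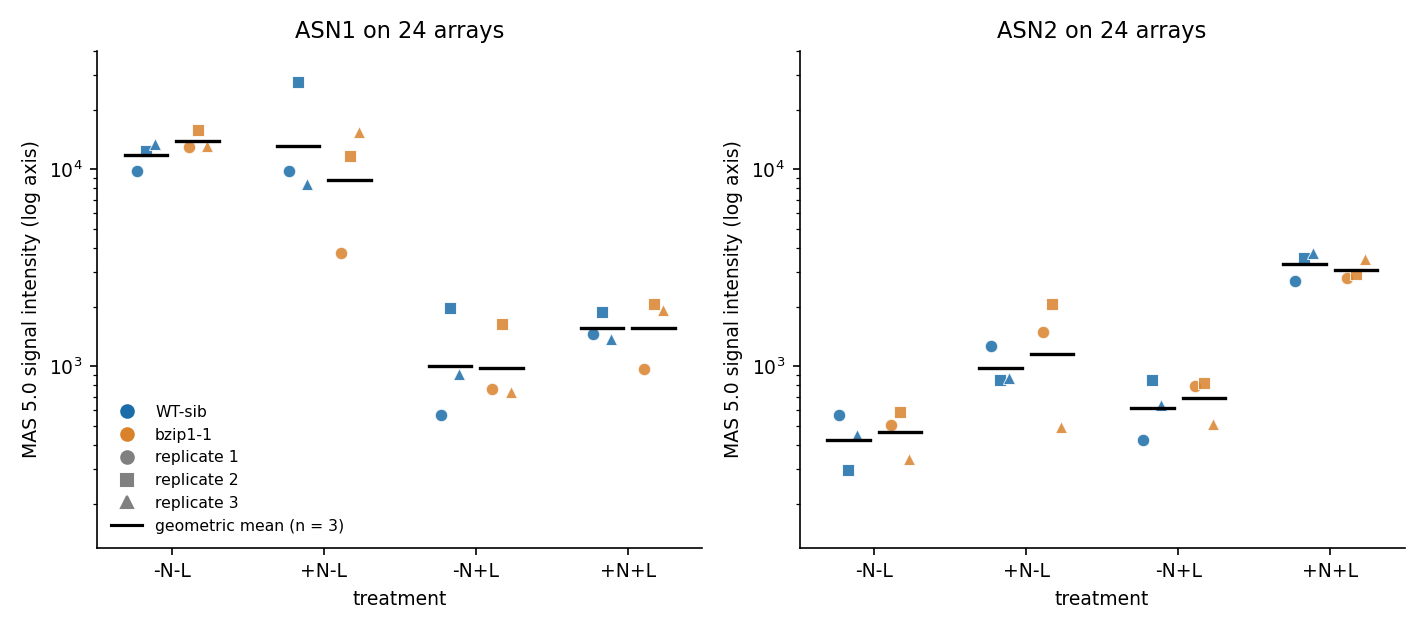
Signal of ASN1 (left) and ASN2 (right) on each of the 24 arrays, as MAS 5.0 signal intensity on a log axis, by treatment; blue is WT-sib, orange is bzip1-1, the symbol gives the replicate number and the bar is the geometric mean of 3 arrays. ASN1 lies between 3763 and 27819 on all dark arrays and between 566 and 2069 on all light arrays, while ASN2 is highest, at 2726 to 3758, where nitrogen and light were given together.

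Light lowered ASN1 9.42-fold on average, a log2 change of -3.24 (SE 0.26, 95% interval -3.77 to -2.70, adjusted p = 7.3e-09). The 12 light arrays and the 12 dark arrays did not overlap, a separation found for 1.98% of all probe sets in this direction, and 11.7% of all probe sets were called lower in light. ASN1 was 29th from the lowest of the 22746 light changes, and it was lower in light in 12 of 12 pairs of arrays with the same replicate number, with changes from -4.15 to -1.95. The fall was called in each genotype and nitrogen state. Under -N the log2 change was -3.55 in WT-sib (SE 0.51, adjusted p = 1.6e-04, background 3.22% called lower) and -3.83 in bzip1-1 (adjusted p = 5.4e-05, background 4.24%). Under +N it was -3.08 in WT-sib (adjusted p = 7.9e-04, background 3.23%) and -2.48 in bzip1-1 (adjusted p = 0.0072, background 1.83%). The last of these calls needed a single array, since without the bzip1-1 +N-L array of replicate 3 the change was -2.08 with an adjusted p of 0.053. Averaged over the genotypes, light changed ASN1 by -3.69 under -N (SE 0.36, adjusted p = 3.7e-07, background 7.56% lower) and by -2.78 under +N (adjusted p = 2.1e-05, background 6.42%).

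In the order of the group means, all 4 light groups of ASN1 came first and all 4 dark groups last. The geometric means in light were 976 for bzip1-1 -N+L, 1009 for WT-sib -N+L, 1563 for WT-sib +N+L and 1573 for bzip1-1 +N+L. In the dark they were 8800 for bzip1-1 +N-L, 11787 for WT-sib -N-L, 13206 for WT-sib +N-L and 13922 for bzip1-1 -N-L. The step between the highest light group and the lowest dark group, 2.48 on the log2 scale, was the only step between neighbours whose arrays did not overlap.

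Nitrogen gave no called change in ASN1. The mean log2 change with N was 0.21 (SE 0.26, 95% interval -0.33 to 0.74, adjusted p = 0.91), and ASN1 was higher with +N in 8 of 12 pairs of arrays with the same replicate number. In light the 3 pairs of bzip1-1 and 2 of the 3 pairs of WT-sib were higher with nitrogen, and the mean over both genotypes was 0.66 (SE 0.36, adjusted p = 0.70), or 0.36 without the -N+L arrays of replicate number 1. In the dark it was -0.25 (adjusted p = 1.00), with 0.16 in WT-sib and -0.66 in bzip1-1, and its sign turned to 0.06 without the bzip1-1 +N-L array of replicate 1, the lowest dark array. The difference between the responses in light and dark, N*L, was 0.91 (SE 0.51, unadjusted p = 0.090, adjusted p = 1.00), where 0.0396% of all probe sets were called in either direction.

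ASN2 was low without nitrogen, higher with it, and highest with nitrogen and light together. Under -N-L the 3 arrays read 569, 298 and 447 in WT-sib and 504, 585 and 340 in bzip1-1. Under -N+L they read 423, 851 and 636 in WT-sib and 796, 827 and 510 in bzip1-1. None of these 12 arrays without nitrogen exceeded 851. Nitrogen in the dark gave 1277, 856 and 878 in WT-sib and 1496, 2066 and 495 in bzip1-1. Nitrogen in light gave 2726, 3541 and 3758 in WT-sib and 2826, 2959 and 3490 in bzip1-1. The 6 +N+L arrays lay above every other array of the study for ASN2. The share of all probe sets with this separation was not counted, so it is only a description. Of the +N-L arrays only the bzip1-1 array of replicate 3, at 495, fell inside the range of the -N arrays.

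Nitrogen raised ASN2 3.43-fold, a log2 change of 1.78 (SE 0.19, 95% interval 1.37 to 2.18, adjusted p = 2.6e-05), in 12 of 12 pairs of arrays with the same replicate number. Of all probe sets 0.699% were called higher with nitrogen, and ASN2 was 23rd from the highest change and 11th by p-value. In light the rise was 2.44 in WT-sib (SE 0.39, adjusted p = 0.0068, background 0.106% called higher) and 2.15 in bzip1-1 (adjusted p = 0.017, background 0.220%). With an array of bzip1-1 in light left out, the bzip1-1 call was lost in 5 fits, with changes of 1.92 to 2.27, and the WT-sib call in 1, without the +N+L array of replicate 2 (adjusted p = 0.051). In the dark the log2 change was 1.22 in WT-sib (95% interval 0.41 to 2.03, adjusted p = 1.00, background 0.00440%). In bzip1-1 it was 1.31 (95% interval 0.50 to 2.12, adjusted p = 0.60, background 0.00879%). The unadjusted p was 0.0051 and 0.0030, in contrasts where 799 and 1322 of all probe sets had an unadjusted p under 0.05. Neither change was called, although all 3 pairs of each genotype were higher. Averaged over the genotypes, the rise in light was 2.29 (SE 0.27, adjusted p = 8.1e-05, background 0.572% higher), with no overlap between 6 arrays and 6, a separation in this direction of 0.849% of probe sets.

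Averaged in the same way, the dark response of ASN2 to nitrogen was 1.27 (SE 0.27, adjusted p = 0.11, background 0.0572% higher). It was called with a replicate block, at the same 1.27 and an adjusted p of 0.032. It was also called without the bzip1-1 +N-L array of replicate 3, where the change was 1.57 with an adjusted p of 9.1e-04, and in bzip1-1 alone it was 1.92 with an adjusted p of 0.010.

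Light raised ASN2 2.10-fold, a log2 change of 1.07 (SE 0.19, 95% interval 0.66 to 1.47, adjusted p = 2.6e-04), in 11 of 12 pairs, where 13.2% of all probe sets were called higher. With nitrogen the rise was 1.75 in WT-sib (adjusted p = 0.0084, background 3.17% called higher) and 1.42 in bzip1-1 (adjusted p = 0.045, background 1.89%). The bzip1-1 call did not hold without the +N-L array of replicate 3, where the change was 0.81 with an adjusted p of 0.25, nor under several other settings. The WT-sib call was at an adjusted p of 0.053 without the WT-sib +N-L array of replicate 2, at 1.64. Without nitrogen the log2 change was 0.53 in WT-sib (adjusted p = 0.58, background 2.88%) and 0.58 in bzip1-1 (adjusted p = 0.48, background 4.01%). Over both genotypes it was 1.58 under +N (SE 0.27, adjusted p = 4.5e-04, background 6.87%) and 0.56 under -N (adjusted p = 0.21, background 8.47%). The test of the difference between these responses, N*L, gave 1.03 (SE 0.39, unadjusted p = 0.016), which did not pass after adjustment (adjusted p = 1.00).

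**Figure D2:**
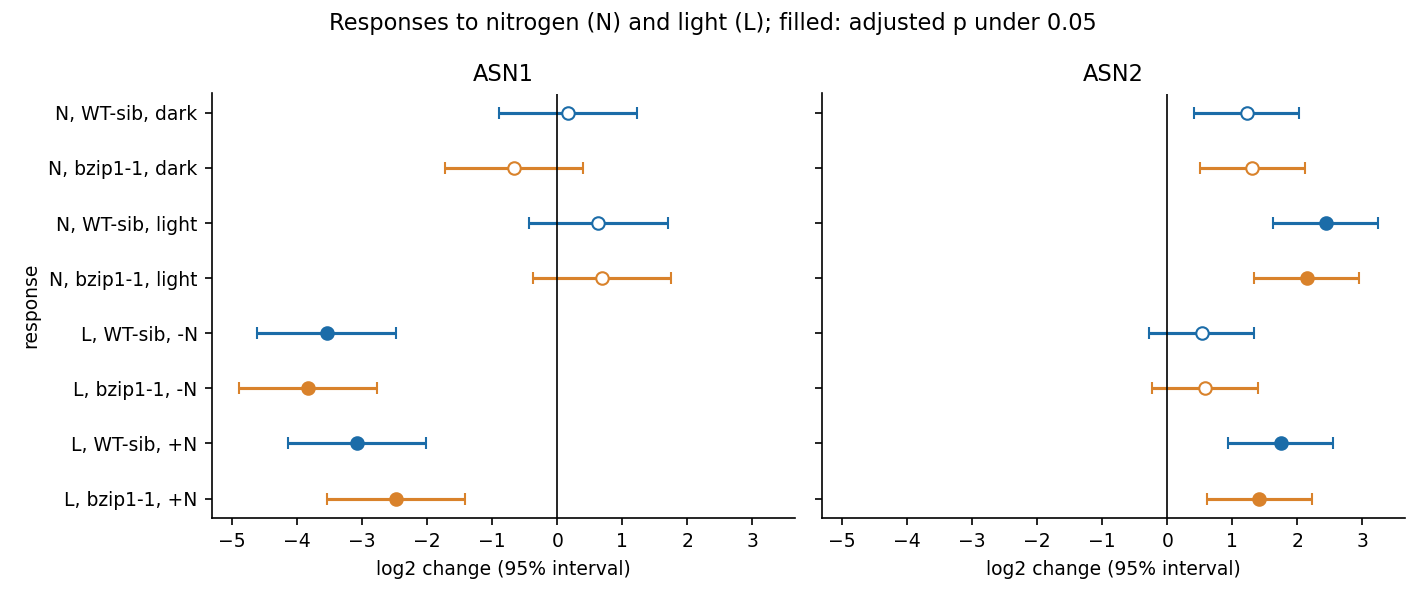
Log2 change of ASN1 (left) and ASN2 (right) with nitrogen (N) and light (L) in each genotype and state; points are limma estimates from 3 arrays against 3, bars are 95% intervals, blue is WT-sib, orange is bzip1-1, and filled points have an adjusted p under 0.05. All 4 light responses of ASN1 are called and lie from -3.83 to -2.48, and of the ASN2 responses only those with nitrogen in light, or with light under nitrogen, are called.

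The group means of ASN2 followed nitrogen first and light second. From the lowest, the geometric means were 423 for WT-sib -N-L, 464 for bzip1-1 -N-L, 612 for WT-sib -N+L and 695 for bzip1-1 -N+L. The +N-L groups followed at 986 for WT-sib, whose arrays lay above all those of bzip1-1 -N+L, and at 1152 for bzip1-1, whose arrays reached down to 495. The +N+L groups were last, at 3079 for bzip1-1 and 3310 for WT-sib, 1.42 on the log2 scale above the nearest group and without overlap. How many of all probe sets share such a gap was not counted. Where the arrays of neighbours overlapped, the order of the means is only a description. Such an overlap is not a test and does not show that the groups are alike.

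No difference between the genotypes was called for either gene. For ASN1 the genotype change was -0.10 (95% interval -0.63 to 0.44, adjusted p = 1.00), which spans 0.647-fold to 1.35-fold, and bzip1-1 was higher in 6 of 12 pairs. For ASN2 it was 0.11 (95% interval -0.30 to 0.51, adjusted p = 1.00), or 0.815-fold to 1.43-fold, with bzip1-1 higher in 5 of 12 pairs. In this term 0.00879% of all probe sets were called. Without the -N+L arrays of replicate number 1 the changes were -0.16 for ASN1 and 0.02 for ASN2. Among arrays of the same replicate number, a number that did not meet the rule for pairing, the mean ASN2 genotype difference was 0.25, 0.49 and -0.41 for numbers 1, 2 and 3. Within the 4 treatments the genotype change ran from -0.59 under +N-L to 0.24 under -N-L for ASN1 and from -0.10 under +N+L to 0.22 under +N-L for ASN2, and 0% of all probe sets were called in any of them (487, 353, 813 and 618 at an unadjusted p under 0.05 under -N-L, -N+L, +N-L and +N+L).

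The responses to nitrogen and light were not called different between the genotypes. N*G was -0.38 (SE 0.51) for ASN1 and -0.10 (SE 0.39) for ASN2, and L*G was 0.15 (SE 0.51) and -0.14 (SE 0.39). N*L*G was 0.88 (SE 1.02) for ASN1 and -0.38 (SE 0.78) for ASN2. Each of these 6 tests had an adjusted p of 1.00. The 95% intervals were wide, from -1.45 to 0.68 for N*G and from -0.91 to 1.22 for L*G in ASN1, and these tests do not show that the genotypes respond alike. Of all probe sets 0% were called by limma in these terms, with 613, 390 and 408 at an unadjusted p under 0.05 for N*G, L*G and N*L*G, and with none called by plain ANOVA or with a replicate block. Without the -N+L arrays of replicate number 1, N*G was -0.26 for ASN1 and 0.08 for ASN2, L*G was 0.03 and -0.32, and N*L*G was 1.12 and -0.02. Without them the genotype change under -N+L was -0.29 for ASN1 and -0.18 for ASN2, against -0.05 and 0.18 with them.

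The ratio of ASN1 signal to ASN2 signal was taken on each array. Because probe sets bind with different strength, the ratio itself does not give relative transcript numbers, and only its change between arrays can be read. It moved with light and nitrogen in the same direction. Under -N-L it was 17.2, 41.5 and 30.2 in WT-sib and 25.7, 27.0 and 38.9 in bzip1-1. Under +N-L it was 7.67, 32.5 and 9.63 in WT-sib and 2.52, 5.66 and 31.3 in bzip1-1. Of these 6 arrays, WT-sib replicate 2 and bzip1-1 replicate 3 lay in the range of the -N-L arrays, the former with the highest ASN1 signal of the study and the latter with the lowest ASN2 signal of its group. Under -N+L it was 1.34, 2.32 and 1.45 in WT-sib and 0.962, 1.98 and 1.46 in bzip1-1. Under +N+L it was 0.538, 0.531 and 0.368 in WT-sib and 0.345, 0.699 and 0.554 in bzip1-1.

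The ratio on the 12 light arrays, 0.345 to 2.32, did not overlap with that on the 12 dark arrays, 2.52 to 41.5, and in light the +N arrays did not overlap with the -N arrays. On average the ratio was 19.8-fold lower in light than in dark, and 2.98-fold lower with nitrogen than without. It was lower in 12 of 12 pairs for each factor. The nitrogen change was -1.06 in WT-sib and -1.97 in bzip1-1 in the dark, and -1.80 and -1.46 in light, on the log2 scale. Under +N+L it was 59.0-fold lower than under -N-L in WT-sib and 58.7-fold lower in bzip1-1. These values combine the changes given above for each gene and carry no test of their own. The pooled SD within groups was 0.87 on the log2 scale for the ratio, against 0.69 for ASN1 and 0.52 for ASN2, and the median over all probe sets was 0.44.

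**Figure D3:**
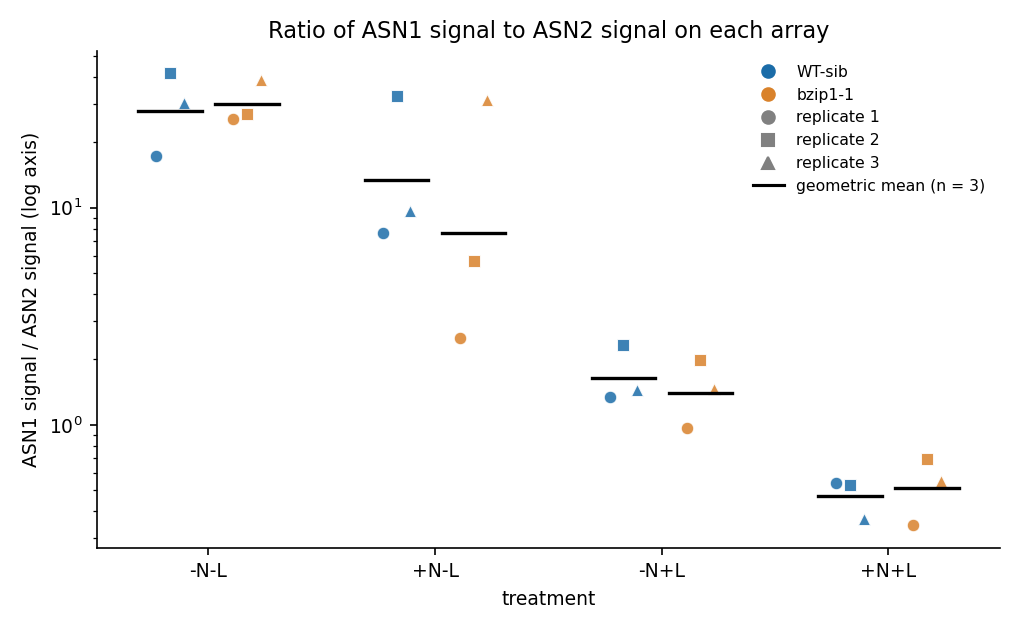
Ratio of ASN1 signal to ASN2 signal on each of the 24 arrays, on a log axis, by treatment; blue is WT-sib, orange is bzip1-1, the symbol gives the replicate number and the bar is the geometric mean of 3 arrays. Dark arrays lie from 2.52 to 41.5 and light arrays from 0.345 to 2.32, and the +N+L arrays, at 0.345 to 0.699, are below all others.

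The genes around asparagine, glutamine and glutamate were few by name, 7 of 22 listed including ASN1 and ASN2. Of the other 5, ASP1, GLT1 and GDH2 were named only from the study's tables of regulated genes, so that the counts are not independent evidence of change. With light 2 of the 7 rose and 2 fell, against 13.2% of all probe sets called higher and 11.7% called lower, and the median log2 change was 0.02, against 0.00 over all probe sets. Beside ASN2, ASPGB1, an asparaginase that breaks asparagine down, rose by 1.22 (SE 0.16, adjusted p = 6.1e-06). Its arrays read 291 to 674 in the dark and 432 to 2136 in light, and the highest were those without nitrogen. Beside ASN1, GDH2, a glutamate dehydrogenase, fell in light with a log2 change of -1.71 (SE 0.24, adjusted p = 1.6e-05). With nitrogen 2 of the 7 rose, against 0.699% of all probe sets. None fell, where only 58 of all 22746 probe sets were called lower. The median was 0.39, against -0.04 over all probe sets. With a replicate block 4 of the 7 rose, against 416 of the 22746 probe sets. These were ASN2 and GLT1, which rose by 0.86 (SE 0.15, adjusted p = 0.0048), and with the block also ASP1, an aspartate aminotransferase, at 0.39 (adjusted p = 0.029) and GDH2 at 0.82 (adjusted p = 0.034). None of the 7 was called for N*L or G, against 0.0396% and 0.00879% of all probe sets. For ASPGB1, N*L was -1.49 (SE 0.32, adjusted p = 0.16), and 0.0061 with a replicate block.

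Other genes known to be induced by darkness also fell in light. Of 8 listed dark-inducible genes 4 could be named, 3 of them only from the study's tables, and all 4 fell in light, against 11.7% of all probe sets called lower, with a median log2 change of -2.82. Names taken from tables of regulated genes favour genes that respond, so that this count is not independent evidence. AKINBETA1, a beta subunit of the SnRK1 kinase that is named by the array annotation, fell by 3.05 (SE 0.17, adjusted p = 1.1e-10), and DIN3, a subunit of the dehydrogenase for branched-chain keto acids, fell by 2.59 (SE 0.18, adjusted p = 1.7e-09). DIN4, of the same enzyme complex as DIN3, was at -2.28 (SE 0.21). The remaining member, given after its values were seen, was DIN1 at -3.10 (SE 0.30), a senescence-associated gene. None of the 4 was called for nitrogen, a term in which only 217 of all 22746 probe sets were called. There DIN3 was at 0.69 (adjusted p = 0.087, or 0.010 with a replicate block) and the median of the 4 was 0.14.

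Of 9 listed bZIP factors of groups C and S1, the group that holds bZIP1 and its partners, 4 could be named and all 4 were called for light, 2 higher and 2 lower, where 13.2% of all probe sets were called higher and 11.7% lower. GBF6, also known as bZIP11, rose by 2.11 (SE 0.14, adjusted p = 6.0e-10), and BZIP9 fell by 0.89 (SE 0.10, adjusted p = 8.9e-07). BZIP53 fell by 1.08 (SE 0.16, adjusted p = 3.5e-05) and, of those given after their values were seen, BZIP44 rose by 0.59 (SE 0.12). BZIP53 also rose with nitrogen, by 0.76 (SE 0.16, adjusted p = 0.024), where 0.699% of all probe sets were called higher. It was the single nitrogen call of the list. None was called for genotype, against 0.00879% of all probe sets. GBF6 and BZIP9 were named only from the study's tables of regulated genes, and the light count is not independent evidence either.

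**Figure D4:**
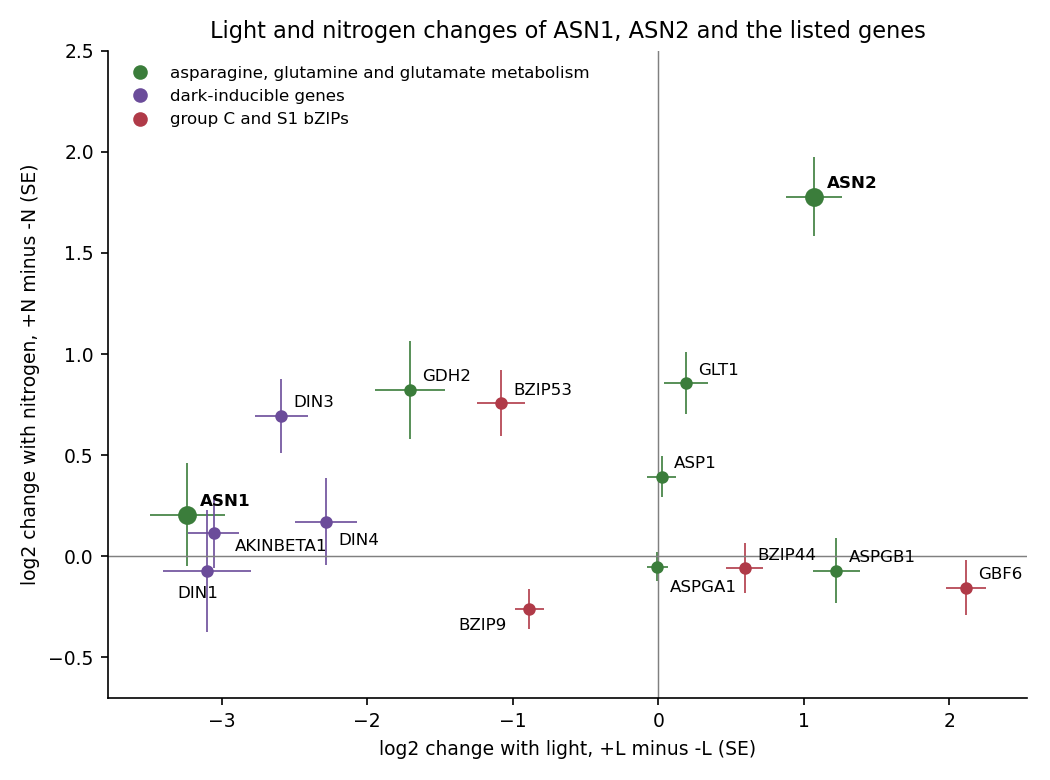
Mean log2 change with light (horizontal axis) and with nitrogen (vertical axis) of ASN1, ASN2 and the named genes of 3 lists; bars are standard errors from the limma fit over 24 arrays. ASN1 lies with the dark-inducible genes at the left, at -3.24, and ASN2 lies alone at the upper right, at 1.07 and 1.78.

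Markers of organs were few as well. Of 12 root-preferential genes 2 could be named (PYK10 and EXPA7) and of 10 leaf photosynthesis enzymes 3 (RCA, PRK and SBPASE). None of them read 0 on an array, and none was called for L, N, N*L or G. Among all probe sets 13.2% were called higher and 11.7% lower for L. For N 0.699% were called higher, and 58 of the 22746 were called lower. For N*L the share was 0.0396% and for G 0.00879%, so that the lack of calls in so few markers shows little. The summed root signal ran from 4133 to 14008 in the dark (median 7018) and from 7267 to 14769 in light (median 10161). PYK10 makes up nearly all of it, since EXPA7 read at most 319 on any array. The summed leaf signal ran from 35304 to 58997 in the dark (median 43114) and from 32575 to 60679 in light (median 47192). With nitrogen the root sum ran from 4133 to 13356 and without it from 5767 to 14769, and PYK10 was called higher in light with a replicate block (0.42, adjusted p = 0.0030). The part of organ proportions in the changes of ASN1 and ASN2 was not tested.

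The transcripts named next were picked because their 8 group means were most like those of ASN1, so that a step with light follows from the choice. Over 8084 probe sets with a single gene and a mean signal above the 40th percentile, Pearson r over the 8 group means was highest for AKINBETA1, AT3G29240, AT1G54740, AT5G56100 and AT5G03320, all at 0.997 or 0.998. The light changes of these 5 ran from -3.57 for AT1G54740 to -1.35 for AT5G03320. None was called for nitrogen, against 217 of all 22746 probe sets. The most opposite were AT3G03770, ACT11, an actin, and RSR4, an enzyme of vitamin B6 synthesis, at -0.999, -0.998 and -0.997. The 8 means of ASN1 fall into a light and a dark set, and r rests largely on the step between them.

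The profiles most like that of ASN2 were also picked by r to its group means, so that like steps with nitrogen and light follow from the choice. They were those of AT5G62720 at r = 0.995, NAC102, a NAC transcription factor, at 0.985, IPT3, an isopentenyltransferase of cytokinin synthesis, at 0.979, AT2G40980 at 0.978 and AT2G44510 at 0.974. Of these, AT5G62720 was changed by nitrogen by 1.54 (adjusted p = 0.0023) and by light by 0.78 (adjusted p = 0.025), and IPT3 by 1.19 (adjusted p = 0.0036) and 0.61 (adjusted p = 0.031). NAC102 rose by 1.00 with nitrogen (adjusted p = 0.0012) and by 0.57 with light, AT2G44510 rose by 0.49 and 0.34, and AT2G40980 was called for neither. The most opposite were ATG18G, an autophagy protein, at -0.982, AT1G21790 at -0.974 and AT3G53670 at -0.969. ATG18G was called for neither nitrogen (adjusted p = 0.16) nor light (adjusted p = 0.13), and AT1G21790 for neither (adjusted p = 0.57 and 0.35). AT3G53670 changed by -0.56 with nitrogen (adjusted p = 0.0099) and by -0.53 with light (adjusted p = 8.0e-04). Over the single arrays r was -0.79, -0.46 and -0.81 for these genes in turn. Over the 24 single arrays, 2 of the 5 most like ASN1 and 2 of the 5 most like ASN2 stayed among the first 5. Points in these correlations share arrays and scaling, and they are given as a description. The bzip1-1 +N-L array of replicate 3, low for ASN2, read 114 for AT5G62720, against 436 and 223 on replicates 1 and 2. IPT3 read 165 there, against 294 and 444, and GLT1 read 1785, against 5163 and 4172. Whether nitrogen-raised transcripts as a whole were low on this array was not tested.

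**Figure D5:**
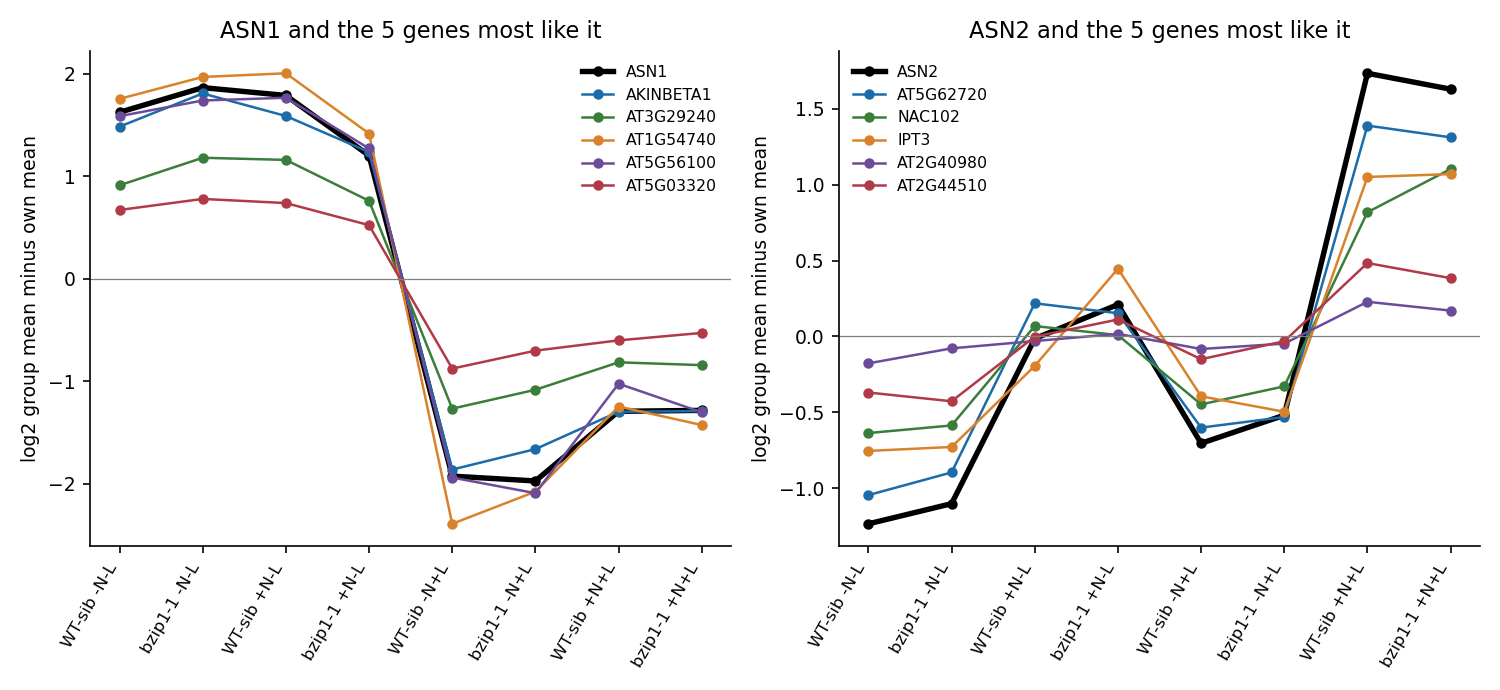
Group means of log2 signal, each minus the gene's own mean over the 8 groups, for ASN1 (left) and ASN2 (right) in black and for the 5 genes with the highest Pearson r to each; points are means of 3 arrays, ordered by treatment and genotype. The ASN1 profiles drop between the dark and light groups, and the ASN2 profiles rise with nitrogen and most with nitrogen in light.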

How the data were processed

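The authors processed each ATH1 array with Microarray Analysis Suite 5.0, and the deposited values are linear signal intensity, 1 per probe set, with a mean of 500 on each array once the lowest and highest 2% are left out. Replicates were not pooled, and no detection calls were used. Arrays have no read depth, and 3 per group limit the precision. The design of the study is a three-way model of nitrogen, light and genotype. Here the signal was taken to log2 without an offset, the 64 controls were dropped, and the model with all interactions was fitted to the other 22746 probe sets by limma 3.58.1 (R 4.3.3, prior variance with a trend). P-values are two-sided, with Benjamini-Hochberg adjustment across every probe set fitted. Figures were drawn with matplotlib 3.10.9 in Python 3.11.15.

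The array annotation gave a single gene and its locus for 13436 probe sets, 874 further probe sets were named from the study's supplementary tables, and 7856 were unnamed. Loci and chromosomes are those of the TAIR10.1 annotation. The members and gene lists were chosen with earlier results of these data known. Named genes were ASN1 and ASN2, the 5 with the highest and the 3 with the lowest r to each, members of the asparagine, glutamine and glutamate list called for L, N or N*L, and the 2 with the smallest p for L and for N in each other list.

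The alternatives were a replicate block, an offset of 32, no trend, median scaling, quantile normalization, a filter on probe sets dimmer than the 40th percentile, plain ANOVA of linear or log2 values, removal of the replicate 1 arrays of -N+L, each array left out in turn, and r over 24 arrays. Responses averaged over the genotypes within 1 light or nitrogen state were added after seeing the data. The model was first tested on simulated data with known changes. Of 100 log2 changes of 1, it recovered 68 for L, 66 for N, 61 for G and 31 for N*L. Of 100 changes of 2 it recovered 59 for N*L, so that true N*L changes are often missed.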

Additional observations from a re-analysis of the deposited data

How the results depend on the processing

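The light and nitrogen changes of ASN2 and the light change of ASN1, averaged over groups, kept their direction and their call under every alternative run, and no mean nitrogen change of ASN1 and no genotype or interaction term of either gene was called under any. Replicate numbers did not meet the rule used for pairing, so the main fit holds no block, yet arrays with the same number were alike. Deviations from the group means correlated over 84 pairs with the same number with a median r of 0.25 and a lowest of -0.07. The median was -0.08 over 168 pairs with different numbers. An r over 0.1 was found in 65 of the 84 pairs and in 3 of the 168. Of the 24 arrays 23 correlated best with an array of their own number. ASN1 deviated on average by -0.50, 0.51 and -0.01 on numbers 1, 2 and 3. The replicate block changed 1 call of the members, the nitrogen change of ASN2 in the dark, which stayed at 1.27 with an adjusted p of 0.032, and it moved the calls from 217 to 652 probe sets for N, from 2 to 7 for G, from 9 to 38 for N*L and from 2 to 4 in the asparagine list for N. The light change of ASN2 in bzip1-1 under +N was no longer called with quantile normalization (1.39, adjusted p = 0.056), without a trend (1.42, adjusted p = 0.075) or in 15 of 24 fits without 1 array (0.81 to 1.84).

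Some values changed sign, and not all of them were near 0. In the main fit ASN1 was at -0.59 for G under +N-L and ASN2 at -0.38 for N*L*G. Scaling to a common median gave -0.00339 for ASN1 G under +N+L, and removal of the replicate 1 arrays of -N+L gave 0.0831 for N*G and -0.18 for G under -N+L in ASN2. With 1 array left out, ASN1 ranged from -0.20 to 0.0573 for G, from -0.15 to 0.40 for L*G, from -0.37 to 0.49 for N in WT-sib in the dark, from -0.46 to 0.44 for G under -N+L, from -0.99 to 0.0271 for G under +N-L, from -0.19 to 0.36 for G under +N+L and from -0.52 to 0.0575 for N in the dark. ASN2 ranged from -0.31 to 0.21 for N*G, from -0.44 to 0.0723 for L*G, from -0.99 to 0.0403 for N*L*G, from -0.12 to 0.36 for G under -N-L, from -0.0813 to 0.42 for G under -N+L and from -0.20 to 0.83 for G under +N-L. Calls were lost in ranges of -3.10 to -2.08 for L of ASN1 in bzip1-1 under +N, 2.17 to 2.67 for N of ASN2 in WT-sib in light (adjusted p = 0.051 without WT-sib +N+L replicate 2), 1.64 to 1.93 for L in WT-sib under +N, and 1.92 to 2.27 for N in bzip1-1 in light (lost in 5 fits). A call was gained for N of ASN2 in bzip1-1 in the dark (0.89 to 1.92) and over both genotypes (1.05 to 1.57).

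For G, 1 probe set was called by either plain ANOVA, by median scaling and without a trend. For N*L the calls were 0 by ANOVA on linear and 1 on log2 signal, 5 with the offset, 1 without a trend and 28 after removal of the replicate 1 arrays of -N+L. The causes of these shifts were not tested.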
